A study of Mus musculus with 16 samples.

Results

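Described here are 10 genes of the fibroblast growth factor (FGF) pathway, picked by name: the secreted ligands Fgf5, Fgf8, Fgf15 and Fgf17, the feedback inhibitors Spry1, Spry2, Spry4 and Dusp6, and the transcription factors Etv4 and Etv5. They are 10 of the 35976 genes in the count table, and 10 of 10 passed the filter on low counts, which left 13891 genes. The libraries came from neural tube organoids on day 4, grown from mouse embryonic stem cells of the R1 line that carry a FOXA2-Venus reporter, a fluorescent readout of the floor plate transcription factor FOXA2. Treatment with retinoic acid (RA) for 18 hours is common to the 16 libraries, so no untreated organoid stands beside them. The 4 groups are the FOXA2 levels negative, low, medium and high, called gates here, with 4 libraries each. The labels name 1 line and number the libraries, without saying whether each number is a culture of its own; p-values therefore cover only the spread among these libraries, part of which may be technical.

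FGF ligands bind FGF receptors together with heparan sulfate and activate the RAS-ERK kinase cascade. ERK activity raises transcription of its own inhibitors, the Sprouty proteins and the ERK phosphatase DUSP6, and of the ETS factors Etv4 and Etv5, so these genes are widely used as readouts of FGF signalling. In the early nervous system FGFs act in neural induction, in patterning and in the upkeep of progenitors, and in stem cell cultures FGF signalling through ERK drives the exit from the naive pluripotent state.

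Levels are given as CPM (counts scaled to the TMM-adjusted library size), mean ± SD over 4 libraries. Because the libraries hold transcript ends and lengths were not divided out, a level is compared between gates for 1 gene and not between genes. A gene is called higher or lower when edgeR's quasi-likelihood test over all 13891 genes gave an adjusted p under 0.05. In bulk libraries, fewer cells that express a gene and less RNA of it per cell cannot be told apart.

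Library totals ran from 3268948 to 9961032 counts, and a gene with no read in a library may have had up to 3, worth 0.913 CPM where depth was lowest (counting error only). Foxa2, which set the gates, had 2.91 ± 1.68 CPM in negative and 113 ± 18.2 in high libraries. Low 1 and medium 2 lay at 29.56 and 36.51 on the third principal component (9.01% of the variance), and the other 14 libraries at 18.21 or less. Fits without both libraries are given where they change a call of the 10 genes, and the level of Spry2 turns on them.

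The 10 genes and the lists further on were chosen with earlier results of these data known. Their counts are therefore set beside the shares of all genes as a description and not as a test. Of the 10 genes, 5 fell from the negative to the high gate, beside 8.55% of all genes. The 5 were Fgf15, Fgf17, Spry4, Etv4 and Etv5. From the negative to the medium gate, 4 of 10 fell (Fgf15, Fgf17, Spry4 and Etv4), beside 4.22% of all genes, and from the negative to the low gate 4 fell (Fgf15, Fgf17, Spry4 and Etv5), beside 2.29%. These comparisons share the negative libraries. Between the FOXA2 gates, Fgf15 was the only one of the 10 called from low to medium, beside 0.223% of all genes lower, and from medium to high, beside 0.547%; Fgf15 and Spry4 were called lower in high than in low, beside 3.08%. In none of the 6 comparisons did edgeR call one of the 10 genes higher, beside 8.42%, 4.24% and 1.47% of all genes for high, medium and low against negative, 0.490% for medium against low, 0.367% for high against medium and 3.79% for high against low. At an unadjusted p under 0.05, 1 of the 10 was higher in high and in medium than in negative (Spry1) and 1 in high than in low (Fgf5), and DESeq2 called 1 higher, Spry1 in high against negative. The median log2 fold change of the 10 genes from the negative to the high gate was -0.45, and that of all genes tested was 0. Neither low 1 nor medium 2 is in the negative or the high gate. Leaving them out bears on the comparison of those gates through the filter, the scaling and the shared estimate of spread, which were redone.

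**Figure D1:**
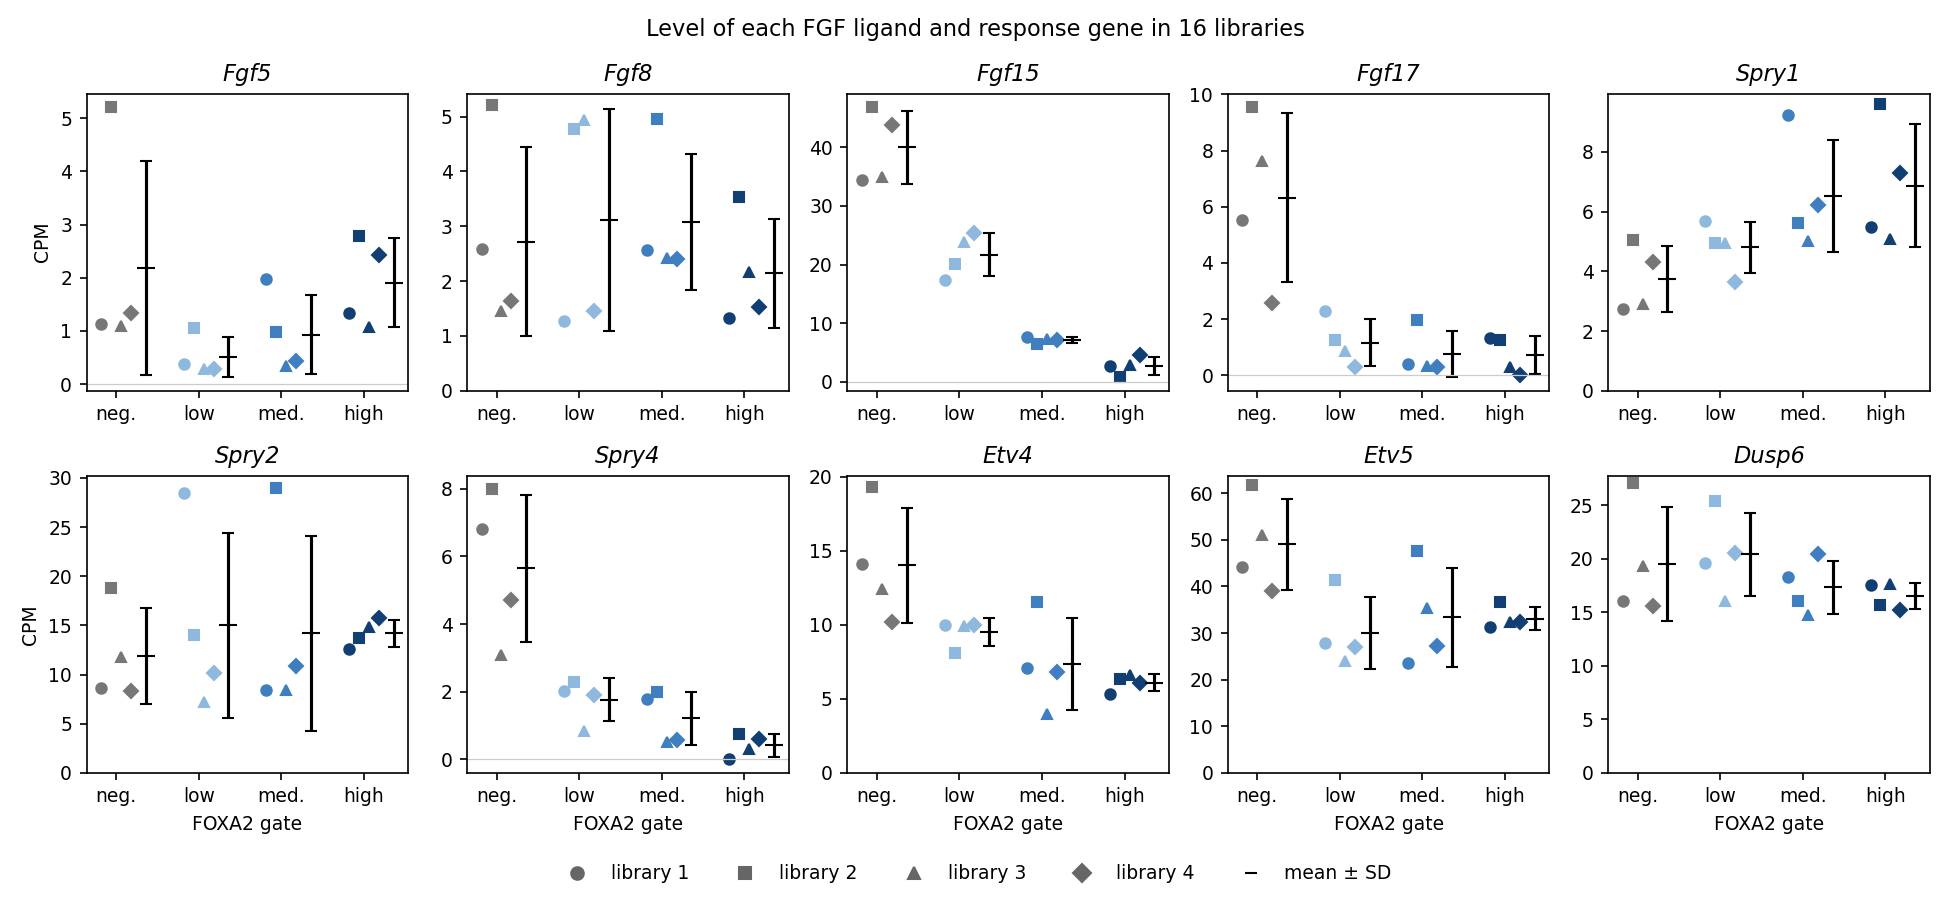
Level in CPM (y axis, starting near 0 and scaled for each gene) of the 10 FGF genes in the 4 FOXA2 gates (x axis). Each symbol is 1 library, shaped by its number, and the bar to the right of each gate is the mean ± SD. Fgf15 steps down at each gate, from 40 to 2.73 CPM, and the Spry2 values of low 1 and medium 2, at 28.5 and 29.0 CPM, sit above the other 14.

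Fgf15 (ENSMUSG00000031073), the mouse counterpart of human FGF19 and a ligand of the embryonic neural tube, had the most ordered pattern. The gene lies on the plus strand of chromosome 7 (GRCm38, chr7:144896531-144900953). Its levels were 34.5, 46.9, 34.9 and 43.8 CPM in negative 1 to 4 and 17.3, 20.1, 23.9 and 25.4 in low 1 to 4. They were 7.68, 6.43, 7.26 and 7.08 CPM in medium 1 to 4 and 2.66, 0.759, 2.93 and 4.57 in high 1 to 4. No library of one gate overlapped the range of another gate. The mean thus went from 40 ± 6.26 to 21.7 ± 3.63, 7.11 ± 0.517 and 2.73 ± 1.56 CPM.

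Each step of Fgf15 passed the test. The log2 fold change was -0.89 (SE 0.190, adjusted p = 0.00412) from negative to low, -1.61 (SE 0.214, adjusted p = 5.52e-05) from low to medium and -1.39 (SE 0.277, adjusted p = 0.00626) from medium to high. From negative to high it was -3.89 (95% interval -4.40 to -3.38, adjusted p = 1.12e-12), a 14.8-fold difference. The last step missed the threshold in a fit of the medium and high libraries alone (-1.40, adjusted p = 0.0599). Of 2 annotated antisense genes that overlap Fgf15, Gm26793 shares 931 bases with it and had 72, 48, 23 and 17 counts over the negative, low, medium and high gates. The other, Gm39119, shares 1641 bases and had at most 2 counts in a gate. The strand setting of the counting is not given in the sources used here, so reads of Fgf15 and of these partners cannot be told apart.

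Fgf17 (ENSMUSG00000022101; chr14:70636203-70642268), a ligand of the Fgf8 subfamily, dropped at the first step. Its levels were 5.51, 9.55, 7.64 and 2.56 CPM in negative 1 to 4 and 2.28, 1.24, 0.847 and 0.29 in low 1 to 4. They were 0.394, 1.98, 0.346 and 0.283 in medium 1 to 4 and 1.33, 1.26, 0.308 and 0 in high 1 to 4. The negative libraries lay above all others, with negative 4 close to low 1, and the 3 FOXA2 gates overlapped. Counts were few, with 156, 33, 18 and 15 in total from the negative to the high gate. The log2 fold change against the negative gate was -2.38 (SE 0.583, adjusted p = 0.0162) in the low gate, -3.02 (SE 0.631, adjusted p = 0.00191) in the medium gate and -3.01 (SE 0.653, adjusted p = 0.00153) in the high gate. Its call in the low gate was lost when negative 2 (adjusted p = 0.0806), low 3 (0.065) or low 4 (0.0666) was left out, with log2 fold changes between -2.26 and -2.06. Medium and high could not be ordered, with a difference of 0.00 (95% interval -1.51 to 1.52).

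Fgf8 (ENSMUSG00000025219; chr19:45736798-45742915), the organizer ligand of the isthmus and the anterior neural ridge, was low in every gate and was not called in any of the 6 comparisons. It had 2.59, 5.21, 1.46 and 1.64 CPM in negative 1 to 4 and 1.27, 4.77, 4.94 and 1.45 in low 1 to 4. In medium 1 to 4 it had 2.56, 4.95, 2.42 and 2.41 CPM, and in high 1 to 4 it had 1.33, 3.54, 2.16 and 1.52. The spread within a gate was as wide as the spread between gates. Between high and negative the log2 difference was -0.34, with a 95% interval of -1.39 to 0.70, so that a fall of 1 on this scale lies within the interval.

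Fgf5 (ENSMUSG00000029337; chr5:98254184-98277030), a ligand typical of the primed epiblast, was also close to the counting limit. It had 1.13, 5.21, 1.09 and 1.33 CPM in negative 1 to 4, 0.38, 1.06, 0.282 and 0.29 in low 1 to 4, 1.97, 0.989, 0.346 and 0.425 in medium 1 to 4 and 1.33, 2.78, 1.08 and 2.43 in high 1 to 4. Negative 2 held 30 of the 56 counts of its gate. The low gate lay below the negative and the high gate without overlap, yet neither difference passed the test (log2 fold change -2.12, adjusted p = 0.0814, against negative; high over low 1.88, adjusted p = 0.117). DESeq2 called the first of these (-2.16, adjusted p = 0.0474).

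Among the inhibitors, Spry4 (ENSMUSG00000024427), which restrains the RAS-ERK cascade downstream of the receptor, fell most. Its levels were 6.80, 7.99, 3.09 and 4.71 CPM in negative 1 to 4 and 2.03, 2.30, 0.847 and 1.89 in low 1 to 4. They were 1.77, 1.98, 0.519 and 0.566 in medium 1 to 4 and 0, 0.759, 0.308 and 0.609 in high 1 to 4. Every negative library lay above every library of the other gates, and the high gate rested on 7 counts in all. The log2 fold change against negative was -1.67 (SE 0.467, adjusted p = 0.0376) in the low gate, -2.23 (SE 0.498, adjusted p = 0.0031) in the medium gate and -3.87 (SE 0.618, adjusted p = 2.82e-05) in the high gate. The high gate was also below the low gate (-2.20, SE 0.674, adjusted p = 0.0431), while medium did not differ from either neighbour beyond the spread (adjusted p = 0.97 against low and 0.448 against high).

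The calls of Spry4 in the low gate are fragile. Against negative, the call was lost without negative 1, 2 or 4 or any 1 of the 4 low libraries, with adjusted p between 0.0593 (without negative 4) and 0.174 (without negative 2). Against high, it was lost without negative 1, 2 or 4, low 1, 2 or 4, or high 1, 3 or 4, with adjusted p between 0.0517 (without negative 2) and 0.167 (without high 1). Without both low 1 and medium 2 the values were -1.75 (adjusted p = 0.0609) for low against negative and -2.13 (adjusted p = 0.0667) for high against low. The direction was the same in each of these fits.

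Spry1 and Spry2, paralogs of Spry4, did not follow it. Spry1 (ENSMUSG00000037211; chr3:37639947-37644598) had 2.75, 5.04, 2.91 and 4.30 CPM in negative 1 to 4, 5.70, 4.95, 4.94 and 3.63 in low 1 to 4, 9.25, 5.61, 5.01 and 6.23 in medium 1 to 4 and 5.49, 9.61, 5.09 and 7.30 in high 1 to 4. The gate means stood in the opposite order to those of Spry4, from 3.75 ± 1.10 CPM in negative to 6.87 ± 2.07 in high. The highest negative library (5.04) and the lowest high library (5.09) nearly touched. High against negative gave a log2 fold change of 0.84 (95% interval 0.22 to 1.45, adjusted p = 0.0553), just outside the threshold. It passed with DESeq2 (0.83, adjusted p = 0.0438), without negative 2 (0.99, adjusted p = 0.0424) and without high 3 (0.97, adjusted p = 0.043).

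Spry2 (ENSMUSG00000022114; chr14:105891947-105896819) had 8.59, 18.8, 11.8 and 8.29 CPM in negative 1 to 4 and 12.6, 13.7, 14.8 and 15.8 in high 1 to 4. In between, it had 28.5, 14.0, 7.20 and 10.2 CPM in low 1 to 4 and 8.46, 29.0, 8.47 and 10.9 in medium 1 to 4. The 2 highest values are those of low 1 and medium 2. With them the gate means were 15.0 ± 9.44 CPM in low and 14.2 ± 9.94 in medium, and without them 10.4 ± 3.39 and 9.28 ± 1.41 (n = 3 each). No comparison was called with or without them, and the high gate differed from negative by 0.27 on the log2 scale (95% interval -0.76 to 1.31).

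Dusp6 (ENSMUSG00000019960; chr10:99263231-99267489), the phosphatase that inactivates ERK in the cytoplasm, was nearly level. It had 16.0, 27.1, 19.3 and 15.6 CPM in negative 1 to 4, 19.6, 25.4, 16.0 and 20.5 in low 1 to 4, 18.3, 16.0, 14.7 and 20.4 in medium 1 to 4 and 17.5, 15.7, 17.6 and 15.2 in high 1 to 4. The gates overlapped throughout. High against negative gave -0.23 on the log2 scale, and its 95% interval of -0.61 to 0.16 excludes a fall of 1 on that scale.

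**Figure D2:**
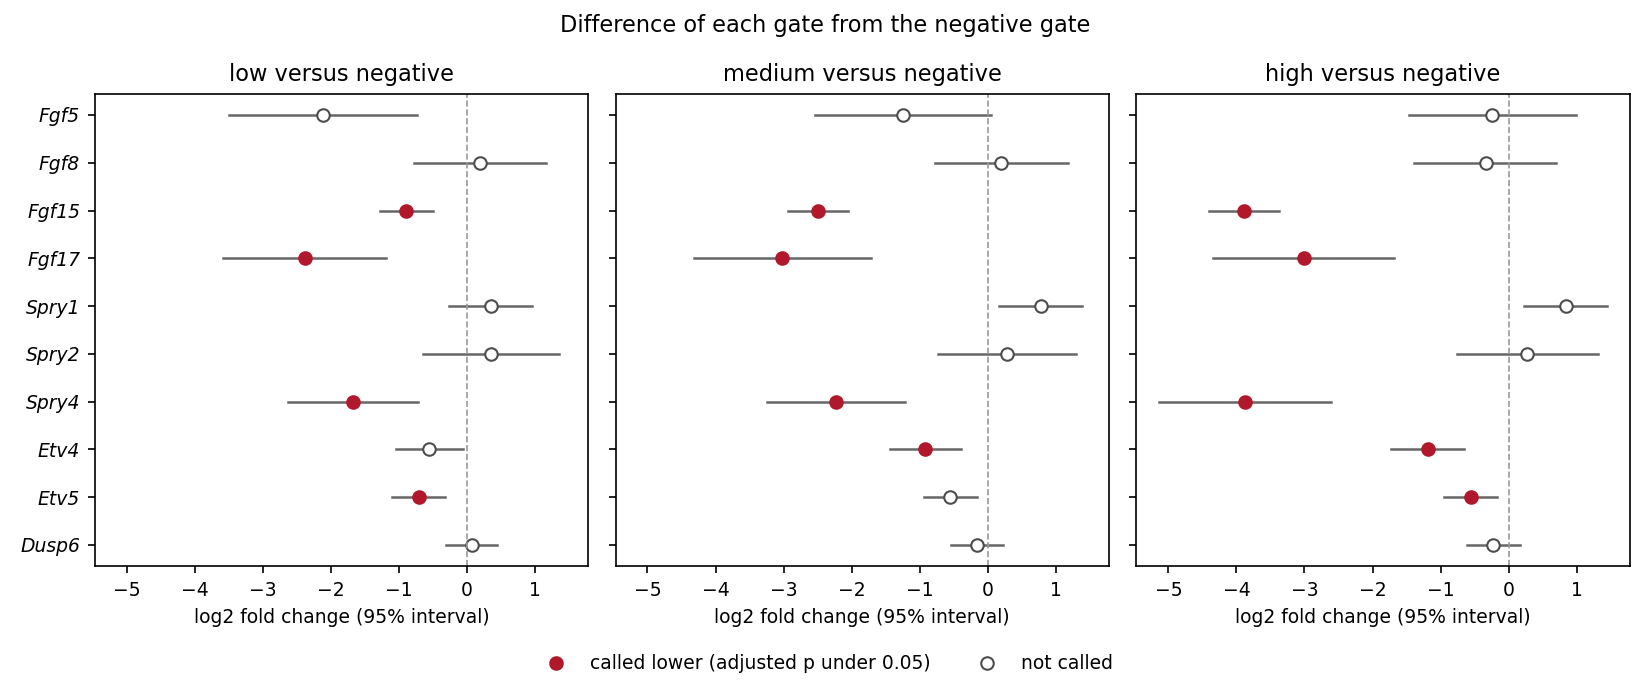
Log2 fold change (x axis) of each of the 10 FGF genes in the low, medium and high gates against the negative gate, with its 95% interval as a line. Filled red points passed the test; Fgf15, Fgf17 and Spry4 are red in the 3 panels, while the intervals of Fgf8, Spry2 and Dusp6 span 0 in each.

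The 2 ETS factors fell by less than Spry4. Etv4 (ENSMUSG00000017724; chr11:101769742-101785371) had 14.1, 19.3, 12.4 and 10.2 CPM in negative 1 to 4 and 10.0, 8.12, 9.88 and 10.0 in low 1 to 4. It had 7.09, 11.5, 3.98 and 6.80 in medium 1 to 4 and 5.32, 6.32, 6.63 and 6.09 in high 1 to 4. The negative libraries lay above the low ones and these above the high ones; medium 2, at 11.5, reached into the negative range. The log2 fold change was -1.19 (SE 0.262, adjusted p = 0.00154) from negative to high and -0.92 (SE 0.251, adjusted p = 0.0177) from negative to medium. From negative to low it was -0.55 (adjusted p = 0.282), which did not pass. The medium call was lost when negative 2 (adjusted p = 0.107), medium 3 (0.0845) or medium 4 (0.0525) was left out, with log2 fold changes between -0.88 and -0.70, and in a fit of the negative and medium libraries alone (-0.91, adjusted p = 0.0528).

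Etv5 (ENSMUSG00000013089; chr16:22381309-22439719) had 44.2, 61.8, 51.0 and 39.1 CPM in negative 1 to 4, 27.9, 41.3, 23.9 and 27.0 in low 1 to 4, 23.6, 47.5, 35.4 and 27.2 in medium 1 to 4 and 31.3, 36.7, 32.4 and 32.3 in high 1 to 4. It was lower than negative in the low gate (-0.71, SE 0.189, adjusted p = 0.0298) and the high gate (-0.56, SE 0.191, adjusted p = 0.0424), and the medium value was of like size but missed the threshold (-0.55, adjusted p = 0.0744). Low, medium and high could not be ordered, with adjusted p of 0.785 or more between them. The medium value passed without low 1 and medium 2 (-0.75, adjusted p = 0.00638), when negative 4 (adjusted p = 0.0435), low 2 (0.0449) or medium 2 (0.00598) was left out, and with no filter on low counts (-0.53, adjusted p = 0.0143).

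The calls of Etv5 lie near the threshold, and leaving out 1 library often lost them. With the replicate number as a block both were kept, at -0.54 (adjusted p = 0.00738) in the high gate and -0.71 (adjusted p = 0.00181) in the low gate. The high call was lost when negative 2 (adjusted p = 0.157), negative 3 (0.0831), medium 3 (0.0503) or any 1 high library was left out (0.054 without high 2 to 0.106 without high 1, with log2 fold changes between -0.61 and -0.44 over these fits), and after thinning to the smallest library total (-0.55, adjusted p = 0.0573). The low call was lost when negative 2 (adjusted p = 0.137), negative 3 (0.0722), low 1 (0.0938), low 3 (0.112) or low 4 (0.102) was left out, with log2 fold changes between -0.69 and -0.58.

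Etv5 and Dusp6 are known targets of Capicua, a repressor that ERK signalling removes from its sites. The start regions printed below were picked because they hold TGAATG, searched for after 4 other motifs gave no match. The RefSeq promoter table (GRCm38.p6) held windows for 5 of the 10 genes (Fgf5, Spry1, Spry2, Dusp6 and Etv5, the last with 2 start sites), 6 in all. Each window covers 250 bases before to 50 after a start. Both strands were searched for the Capicua octamers TGAATGAA and TGAATGGA and for the ETS motifs CCGGAAG and CAGGAAG, which 1.3%, 1.21%, 8.86% and 13.3% of all 32817 promoter windows hold. None of these 4 is in the 6 windows. The 6 letters TGAATG, which begin both octamers, were searched for after this; they stand in 12.7% of all windows and in 2 of the 6, those printed here. The 250 bases before each start are given on the strand of the gene, 5′ to 3′, with TGAATG or its reverse complement CATTCA in capitals. The Etv5 stretch, before the second start site, lies inside the gene on the minus strand (chr16:22438369-22438618) and overlaps no annotated exon; the Dusp6 stretch lies before the gene on the plus strand (chr10:99262981-99263230).
Etv5: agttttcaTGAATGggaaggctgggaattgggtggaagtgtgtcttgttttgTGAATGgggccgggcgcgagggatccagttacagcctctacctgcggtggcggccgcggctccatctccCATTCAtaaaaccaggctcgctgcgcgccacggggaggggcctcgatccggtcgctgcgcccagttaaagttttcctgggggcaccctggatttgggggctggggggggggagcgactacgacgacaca
Dusp6: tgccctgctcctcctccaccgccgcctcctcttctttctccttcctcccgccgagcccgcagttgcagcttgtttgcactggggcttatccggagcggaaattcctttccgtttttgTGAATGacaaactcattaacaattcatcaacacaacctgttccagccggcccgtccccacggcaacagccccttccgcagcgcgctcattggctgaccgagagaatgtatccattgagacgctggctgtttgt
Etv5 has 3 matches, at positions 9, 53 and 122 of the window, and Dusp6 has 1, at position 118. A match is a string of letters and not a shown binding site. The other Etv5 window holds no match, and the printed windows were picked by their matches, so match numbers cannot be set against levels. No binding was measured here.

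Beyond the 10 genes, other secreted ligands were mostly too low to test. Of 14 listed, 4 passed the filter, and from the negative to the high gate 1 fell and 0 rose (edgeR; 1 rose at an unadjusted p under 0.05, and 0 with DESeq2), beside 8.55% of all genes lower and 8.42% higher. The count lower ran from 1 to 3 over 24 alternatives: it was 2 without the filter, without low 1 and medium 2, and without negative 1, high 1, high 2, high 4 or any 1 low or medium library, and 3 without high 3. The count higher was 1 without negative 3. The one that fell was Fgf1, a ligand for all FGF receptors, from 14.9 ± 3.50 to 4.49 ± 1.5 CPM (log2 fold change -1.77, SE 0.289, adjusted p = 3.91e-05). Fgf3, a ligand of the hindbrain, was 24.4 ± 4.43 CPM in negative, 35.6 ± 1.93 in low, 28.3 ± 3.30 in medium and 18.4 ± 5.16 in high, and differed between high and low (-0.94, SE 0.173, adjusted p = 0.000426). Fgf4, the autocrine ligand of pluripotent cells, did not pass the filter in the fit of all 16 libraries and is named after its values were seen. It had 9, 42, 16 and 31 counts in negative 1 to 4 (3.71 ± 2.51 CPM), 4 counts in low 1, 3 in medium 3 and 0 in each other library. Set against 3 counts in each high library (0.658 CPM), its mean in the negative gate was 5.63-fold higher. The spread of the negative libraries, from 1.46 CPM in negative 1 to 7.29 in negative 2, does not enter this value. A fit without the filter called Fgf4 lower in the high gate (adjusted p = 4.57e-08), the medium gate (5.32e-06) and the low gate (7.6e-06). Fgf1 and Fgf4 are thus the 2 ligands counted lower from negative to high without the filter. The filter was redone in each fit, so leaving out libraries can change which ligands were tested. Which ligand was added in those fits was not recorded. Of 4 intracellular FGF homologous factors, which do not signal through FGF receptors, Fgf13 fell from 8.85 ± 2.62 to 5.04 ± 1.14 CPM (-0.84, adjusted p = 0.0343). That call was lost without negative 2 (adjusted p = 0.156), negative 4 (0.0653), high 1 (0.13), high 2 (0.0556) or high 3 (0.0805).

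Receptors and co-receptors were called in both directions. Fgfr1, the main receptor of the early neural plate, had 51.9 ± 2.80, 51.4 ± 4.70, 40.6 ± 3.33 and 38.3 ± 2.64 CPM from negative to high, and was lower in high than in negative (-0.44, SE 0.121, adjusted p = 0.0107). It was also lower in high than in low (-0.43, SE 0.121, adjusted p = 0.0266), a call lost without low 2 (adjusted p = 0.0824), low 3 (0.0677), high 1 (0.0961), high 3 (0.0585) or high 4 (0.0598). Fgfr2 had 25.2 ± 4.04 CPM in negative and 22.6 ± 3.63 in high and was not called in any comparison. Fgfr3 was highest in the low gate (6.63 ± 1.38 CPM) and lower in the high gate (2.66 ± 1.11; -1.33, SE 0.316, adjusted p = 0.00675). Fgfr4 lay between 2.31 ± 1.30 and 3.43 ± 1.2 CPM and was not called. Of 8 tested receptors and co-receptors, 2 rose and 1 fell from negative to high, beside 8.42% and 8.55% of all genes; the risers were Fgfrl1, a receptor without a kinase domain (3.42 ± 1.33 to 7.00 ± 2.14 CPM), and Flrt1, a membrane protein that binds FGF receptors (6.50 ± 1.80 to 12.6 ± 1.71 CPM). Fgfrl1 lost its call without negative 1, 3 or 4 or high 1, 3 or 4 (adjusted p up to 0.189), and Flrt1 without negative 2 or 4 or high 1 (adjusted p up to 0.0712). With negative 4 or high 1 left out, 0 rose.

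Heparan sulfate genes were called in the other direction by edgeR, in part with fragile calls. Of 17 tested, 6 rose from negative to high and 0 fell with edgeR, beside 8.42% of all genes higher; 1 fell at an unadjusted p under 0.05, and DESeq2 called 7 higher and 1 lower. Gpc3, a cell surface proteoglycan, rose from 65.6 ± 10.1 CPM in negative to 115 ± 20.9 in low, 148 ± 8.55 in medium and 203 ± 22.4 in high (high against negative 1.63, SE 0.128, adjusted p = 6.87e-11). Hs2st1, which sulfates the chains, rose from 14.0 ± 2.06 to 25.3 ± 5.52 CPM (0.84, SE 0.180, adjusted p = 0.00123). Ext1, part of the enzyme pair that builds the chains, rose from 61.4 ± 4.74 to 86.2 ± 7.18 CPM (0.49, SE 0.119, adjusted p = 0.00398). Gpc2, another surface proteoglycan, rose from 6.45 ± 1.06 to 10.6 ± 1.44 CPM (0.70, adjusted p = 0.0321). Gpc2 lost its call without negative 1, 2 or 3 or high 1, 2 or 4 (adjusted p up to 0.0917). It also lost it with no filter on low counts (0.0683) and after thinning to the smallest library total (0.106). Ext2 and Sulf1 were also called higher. Ext2 lost its call without negative 1, negative 3 or high 4 (adjusted p up to 0.0698). Sulf1 lost its call without negative 1, negative 4 or any 1 high library (adjusted p up to 0.121). Without high 4 the count higher was 3 of 17, and without low 1 and medium 2 the count lower was 1.

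In the RAS-ERK cascade, 2 of 18 tested genes rose and 0 fell with edgeR (1 fell at an unadjusted p under 0.05, and 0 with DESeq2). The 2 that rose are a share near the 8.42% of all genes. Gab1, a docking protein, had 38.7 ± 2.03 CPM in negative and 53.4 ± 10.1 in high (0.47, adjusted p = 0.0341), and Mapk3, which encodes ERK1, had 20.7 ± 2.62 and 30.6 ± 4.01 (0.55, adjusted p = 0.0279). Without negative 1, negative 3 or negative 4 the count was 0, and without high 1 it was 1; the adjusted p ran up to 0.203 for Gab1 (without high 1) and 0.0806 for Mapk3 (without high 4). Of 17 other feedback and response genes, 2 rose and 2 fell, near the 8.42% and 8.55% of all genes. Phlda1, an ERK-induced gene, rose from 23.0 ± 1.5 to 55.1 ± 3.83 CPM (1.26, SE 0.154, adjusted p = 4.3e-07), and Dusp9, an ERK phosphatase, from 27.5 ± 3.83 to 43.3 ± 10.1 (0.66, adjusted p = 0.0252). Dusp4, a nuclear ERK phosphatase, fell from 37.7 ± 9.85 to 18.2 ± 4.47 CPM (-1.03, SE 0.205, adjusted p = 0.000533), and Etv1, the third member of the Etv4 family, from 5.67 ± 2.22 to 2.27 ± 1.34 (-1.30, adjusted p = 0.0372). Dusp9 lost its call without negative 3 or 4 or high 2 or 3 (adjusted p up to 0.11), and Etv1 without negative 1, 2 or 4 or high 1, 3 or 4 (adjusted p up to 0.131). The calls of Phlda1 and Dusp4 were kept in the 24 alternatives.

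**Figure D3:**
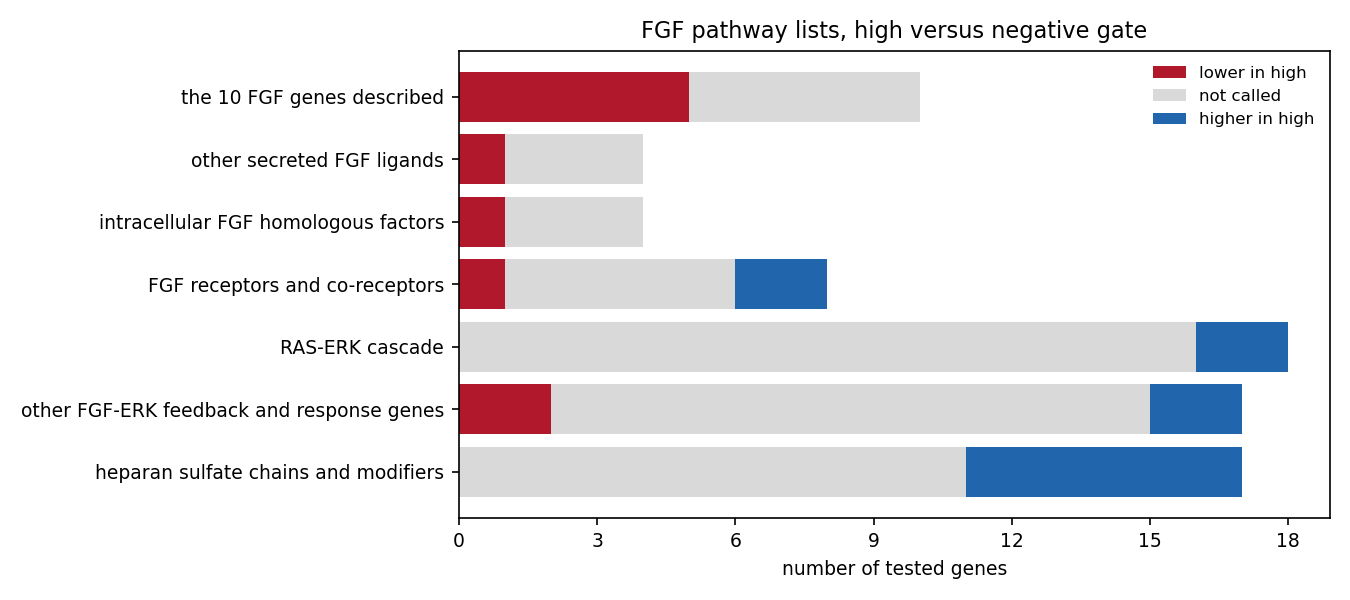
Number of tested genes (x axis) in each FGF pathway list that were lower (red), not called (grey) or higher (blue) in the high than in the negative gate. The 10 genes described have 5 lower and 0 higher, and the heparan sulfate list has 0 lower and 6 higher.

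Markers of other cell states are given beside these values, and their counts called from negative to high stand beside 8.55% of all genes lower and 8.42% higher. The 15 pluripotency and epiblast markers summed to between 802 and 1330 CPM in the negative libraries, 283 to 417 in low, 230 to 377 in medium and 247 to 289 in high. Of 13 tested, 10 fell from negative to high and 0 rose, among them Nanog (23.6 ± 6.45 to 0.742 ± 0.492 CPM), Utf1 (364 ± 92.0 to 16.8 ± 5.26) and Zfp42 (62.9 ± 18.9 to 7.16 ± 3.02); Pou5f1 was 2.49 ± 0.671 CPM in negative and 0 in the high libraries. This sum was highest in the negative gate and close together in the other 3, as were the levels of Fgf17 and Etv5. The part of these cells in the FGF genes' levels was not tested.

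The 12 pan-neural progenitor markers summed to between 445 and 499 CPM in negative, 457 to 556 in low, 319 to 361 in medium and 155 to 200 in high, and 8 of 10 tested fell from negative to high. Hes5, a Notch target of progenitors, fell from 92.9 ± 17.8 to 19 ± 5.18 CPM and Pax6 from 95.4 ± 8.27 to 23.7 ± 1.24. Sox1 and Sox2 are listed at 0 in all 16 libraries, so these defining neural markers could not check the tissue. The 9 neuronal markers went from 147 to 225 CPM in negative to 56.9 to 83.7 in high, with 5 of 7 tested lower, among them Stmn2. The 10 endoderm markers rose from 122 to 145 CPM in negative to 457 to 477 in high, with 4 of 6 tested higher. Among these 4 were Sox17 (11.7 ± 3.02 to 134 ± 14.5 CPM) and Cldn6 (32.3 ± 4.96 to 149 ± 8.61). Of the markers too low to test, Gata6 had 4, 9, 15 and 44 counts and Afp 2, 20, 11 and 29 from negative to high, and Hnf4a had 2, 4, 2 and 0. Foxa2 set the gates, so it was left out of the floor plate markers after the data were seen: the other 8 summed to between 32.8 and 37.6 CPM in negative and 79.9 to 98.3 in high, with 4 of 5 tested higher (with Foxa2, 5 of 6). Of the other lists, 4 of 9 tested midbrain, isthmus and hindbrain markers fell and 1 rose, 1 of 4 forebrain markers rose, 2 of 4 caudal markers rose and 1 fell, and 1 of 5 neural crest markers fell; in lists of 4 or 5 genes a count of 1 cannot be told from the share over all genes. The 10 FGF genes summed to between 132 and 207 CPM in negative and 78.8 to 91.1 in high; the part of any of these cell types in that difference was not tested.

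**Figure D4:**
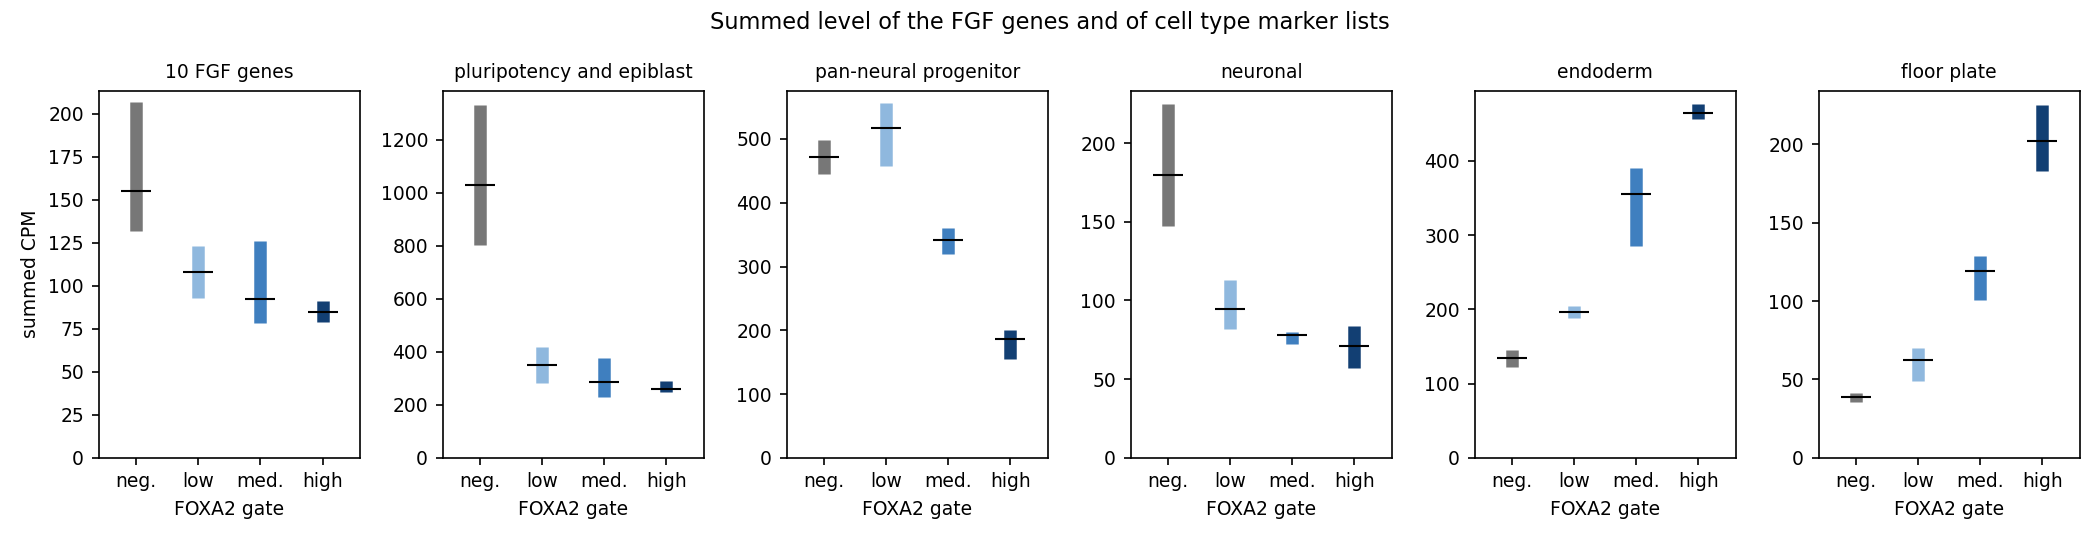
Summed CPM (y axis from 0, scaled for each list) of the 10 FGF genes and of 5 marker lists in the 4 FOXA2 gates. The coloured bar spans the lowest to the highest of 4 libraries and the black line is the mean; the pluripotency sum drops at the first step, the pan-neural sum only after the low gate, and the endoderm and floor plate sums rise, the latter with Foxa2 in it.

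Genes with the profile closest to each member were found by the mean absolute difference of centred log2 CPM over the 16 libraries, among about 6115 named genes of at least 20 CPM. For Fgf15 these were Hes3, a progenitor transcription factor (0.316), Fez1 (0.428) and Tfap2c (0.506), where the median gene differed by 1.364. Hes3 went from 50.2 CPM in negative to 29.5, 11.1 and 3.7 in low, medium and high. For Fgf17 the closest were L1td1 (0.547), Zfp42 (0.552) and Lefty1 (0.577), and L1td1 went from 115.3 CPM to 14.3, 8.3 and 7.9. For Spry4 they included Sfn (0.428) and Hspb1 (0.453), and Sfn went from 66.8 CPM to 17.1, 10.4 and 8.3. Fgf15 thus lay closest to genes that stepped down gate by gate, and Fgf17 and Spry4 to genes with their largest drop between negative and low.

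For Etv4 the closest profiles were those of Hprt (0.212), Plcg2 (0.213) and Tacc1 (0.229), and for Etv5 those of Mta3 (0.172), Arid5b (0.178) and Hspbap1 (0.181). Spry1 lay closest to Vhl (0.208), Krba1 (0.222) and Kiz (0.223), and Vhl went from 26.7 CPM in negative to 37.7 in high. For Spry2 they were Taok1 (0.258), Cit (0.259) and Hmga2 (0.263), and for Dusp6 Tmem70 (0.14), Tbl2 (0.148) and Wwox (0.149). The median gene differed by 0.476 for Etv4, 0.365 for Etv5, 0.383 for Spry1, 0.492 for Spry2 and 0.261 for Dusp6. Dusp6 itself deviated by only 0.2 from its own mean, so a small difference is no sign of a close match there. Fgf5 (Nav2, 0.514, against a median of 0.722) and Fgf8 (Stam2, 0.389, against 0.564) had no close profile. These values describe 16 libraries that share their gates and depth, and say nothing of shared control.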

How the data were processed

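The authors deposited 1 table of raw counts for 16 BRB-seq libraries (bulk 3′ RNA-seq). Per the submitters' processing notes, cutadapt 1.18, STARsolo 2.7.9a, DESeq2 1.42.0 and the build GRCm38 were used. The sources used here give no annotation, strand setting or use of molecular identifiers. Coordinates are from GENCODE M21.

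The tests used edgeR 4.0.16 under R 4.3.3, with its expression filter (minimum count 10), TMM scaling and a robust quasi-likelihood fit of 4 gates over 16 libraries, with 6 contrasts and Benjamini-Hochberg adjustment over 13891 genes at 0.05. The robust option was adopted after a first fit without it had been seen, because it matched an earlier processing of these data. The values given are from the robust fit, and the fit without the option is among the alternatives. The SE is the log2 fold change over the square root of F. Pairs of libraries within a gate differed beyond sampling noise (smallest chi-square per degree of freedom 4.25 over 24 pairs), so none is a copy of another. Each library was counted once. This does not show that each is a culture of its own. The edgeR fit, without its filter, was first run on simulated counts of known fold change for high against negative. The other steps were not run on simulated counts.

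The members and lists were chosen with earlier results of these data known. Named were the 10 members, Fgfr1 to Fgfr4, up to 4 called genes per direction of each pathway list, up to 3 of each marker list, and the 3 closest profiles, of which 1 is not reported here. Fgf3, Fgf4, Ext2 and Sulf1 fall outside this rule and were named after their values were seen. Lists of the midbrain, isthmus and hindbrain, of the forebrain, of caudal mesoderm and of neural crest were also counted. Alternatives were RLE scaling, DESeq2, no filter, a replicate block, thinning to the smallest total and only the gates compared. Further alternatives left out each library, both low 1 and medium 2, or the robust option.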

Additional observations from a re-analysis of the deposited data

Results flagged for a closer look

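Of 40 sets of 4 libraries (10 genes in 4 gates), 6 had a library whose gap to its nearest neighbour was over 0.829 of the whole range; chance gives about 1 in 20 such sets. Medium 2 was the library in 3 of them: Spry2 at 29.0 CPM (next 10.9), Fgf8 at 4.95 (next 2.56) and Fgf17 at 1.98 (next 0.394). Fgf5 stood at 5.21 CPM in negative 2 (next 1.33) and at 1.06 in low 2 (next 0.38), the latter on 6 counts. Etv4 in low 2, at 8.12 CPM, was below the next library at 9.88. No cause was tested.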

How the results depend on the processing

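Over 24 alternatives, 1368 of 1417 values of the 10 genes kept their side of the threshold, 39 missed the threshold and 10 newly passed it. Of values called in the main or the alternative fit, 0 reversed direction. Values called in neither could change sign, as for Fgf5 from negative to high (-0.48 to 0.60). A gene below the filter in a fit has no value there. The number of the 10 genes called from negative to high was 5, but 6 with DESeq2, 3 after thinning and 4 to 5 with each library left out. From negative to low it was 4, and 1 to 4 with each library left out (1 without negative 2, low 3 or low 4). From medium to high it was 1, and 0 in the fit of those gates alone. From low to high it was 2, but 1 after thinning, 1 in the fit of those gates alone, 1 without low 1 and medium 2, and 1 to 2 with each library left out. After thinning, Spry4 fell below the filter and was not tested, which lowers the counts of that fit. The same held for Spry4 in the fit of the low and high libraries alone. The option of a robust spread changed none of the 6 counts of the 10 genes. Outside them, Dusp4 was lower in the low than in the negative gate with it (-0.68, adjusted p = 0.0472). Without the option that call was lost (adjusted p = 0.0574).

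The number of all genes called from low to medium was 99, against 161 with DESeq2, 189 with no filter, 57 in the fit of those gates alone and 54 to 111 with each library left out. From medium to high it was 127, against 222 with no filter, 324 without low 1 and medium 2 and 76 to 233 with each library left out. RLE scaling moved the median of all genes by under 0.1 on the log2 scale. The causes were not tested.

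Same-numbered libraries of different gates had correlated deviations between -0.082 and 0.216 over 24 pairs, 6 of them over 0.1, and 11 of 16 libraries correlated best with a library of their own number, a hint from the data and not from the design. With the replicate number as a block the 10 genes had 5, 5, 4, 1, 1 and 2 calls in the order of high, medium and low against negative, medium against low, high against medium and high against low; Etv5 from negative to medium was the added call (-0.57, adjusted p = 0.00818). Of all genes, the block gave 2468, 1293, 608, 130, 175 and 1066 calls. Few counts limit Fgf5, Fgf17 and Spry4 most, with totals of 13, 15 and 7 in their lowest gates.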
